A study of Mus musculus with 12 samples.

Results

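The organ-specific part of the response to a mammary tumor was measured as the tumor-bearing minus control change in lung, less the same change in liver, on all 12 of 12 arrays of the study. The mice were female and of the nude NCR strain, whose lack of a working thymus leaves few mature T cells. In 3 mice 4T1 cells, a metastatic line from a mouse mammary carcinoma, had been placed orthotopically, and 3 controls had received PBS (phosphate-buffered saline). Both organs were collected at day 7, which made 4 groups of 3 arrays. Total RNA of whole tissue was hybridised to Affymetrix MOE430A 2 arrays, so a higher value from more cells of a type cannot be told apart from one with more RNA per cell. Organs of mice with a tumor are labelled pre-metastatic. Values are log2 expression values per probe set made by the authors with GCRMA. A difference above 0 means that lung rose more, or fell less, than liver. Genes were tested where they read above 4 (log2) on at least 3 arrays, which 8433 of 12393 genes did. Of these, 7194 passed that limit in both tissues, 713 in lung only and 518 in liver only, and 8 passed over all 12 arrays but in neither tissue alone.

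Tumors can act on distant organs before any tumor cell grows there, through cytokines and growth factors carried in blood. In lung this is known to include the arrival of neutrophils and other myeloid cells, whose granules hold proteases, iron-binding proteins and antimicrobial peptides. Liver answers the same circulating signals through hepatocytes, which change their output of plasma proteins, their handling of iron and lipids and their growth genes.

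Each array held the defining transcripts of its organ. Sftpc, which codes for surfactant protein C of the alveoli, read 15.70 to 15.86 in lung and 2.24 to 6.54 in liver. Alb, which codes for albumin, read 16.05 to 16.20 in liver. In lung it read 14.39 in tumor-bearing replicate 1 and 14.65 in control replicate 3 but 8.96 to 11.08 on the other arrays, so those 2 lung arrays stood apart in liver transcripts. Myh6, a heart muscle gene, ran from 3.75 to 12.10 over the lung arrays. Arrays of 1 group correlated at 0.989 to 0.996. Every array shared a lowest value of 2.044, and 26.7% to 28.5% of its values lay within 0.05 of it, so a gene absent from 1 tissue had almost no spread there. Lung and liver came from the same mice, and the array names of lung and liver carry the same numbers. The labels do not say that a number marks a mouse, and the arrays were treated as independent.

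The difference between tissues was called for 131 of 8433 genes (1.55%; limma, adjusted p under 0.05), 87 above 0 (1.03%) and 44 below 0 (0.522%). In the same fit 220 genes were called in lung (2.61%; 1.74% higher and 0.866% lower with the tumor) and 653 in liver (7.74%; 2.66% higher and 5.09% lower). By class, 85 of the 7194 genes measured in both tissues were called (1.18%), 32 of the 713 lung-only genes (4.49%) and 14 of the 518 liver-only genes (2.70%). Leaving out 1 array took these counts down to 34 (control lung replicate 2), 15 (control liver replicate 1) and 5 (control lung replicate 2), and leaving out both hepatocyte-rich lung arrays gave 32, 29 and 3. With each tissue given its own spread they were 98, 17 and 7. A gene could enter a single-tissue class through the 3 arrays of 1 group alone, where it was high. Cda did so through tumor-bearing liver and Mak through control lung. The shares called by class are therefore a description and no test. The 87 genes above 0 had 2 origins: 40 rose in lung without a call in liver, and 45 fell in liver without a call in lung. Of the 44 genes below 0, 32 rose in liver without a call in lung and 10 fell in lung without a call in liver. Below, a gene said to rise or fall in 1 organ alone had no call in the other. Only Pag1 and Mycl were called in both tissues, in opposite directions, and no gene called in the difference was called in both in the same direction. The median difference was 2.25 for the 40 genes that rose in lung and 1.06 for the 45 that fell in liver, and -1.78 for the 32 that rose in liver and -1.56 for the 10 that fell in lung. With each number taken as 1 mouse (a replicate block, which leaves fewer degrees of freedom) 14 genes were called, 13 of them among the 131. They included Ltf, Mmp8, Camp, Clec4e, Cd177, Ifitm6, Ripor2, Ctse, Cda, Mak, Mycl and Pag1. Most other genes named below, among them Alox5ap, H2-Eb1, Myc and Smad7 (each adjusted p = 0.0733), did not pass in that fit. With the number taken as a random effect instead, 149 genes were called, among them all 131. Array medians over the genes tested were 8.59, 8.70 and 8.69 in tumor-bearing liver and 8.81, 8.79 and 8.78 in control liver. In lung they overlapped, at 8.87, 8.78 and 8.94 against 8.88, 8.90 and 8.84. With each array centred on its median the split became 57 above and 53 below 0. The count of 131 fell to 68, 57 and 80 without control lung replicates 1, 2 and 3. It fell to 82 without tumor-bearing liver replicate 1, and to 64 and 71 without control liver replicates 1 and 2. It fell to 64 without both hepatocyte-rich lung arrays, and 44 of the 131 genes kept their call whichever array was left out.

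**Figure D1:**
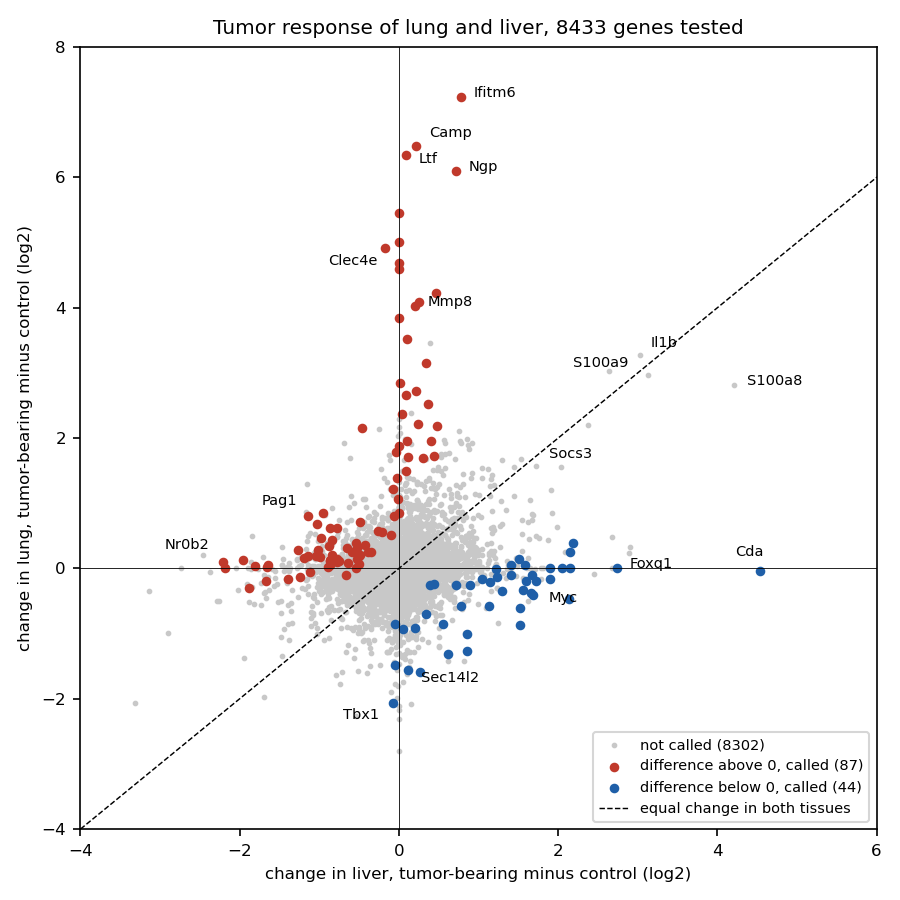
Change in lung against change in liver (tumor-bearing minus control, log2) for 8433 genes, 1 point per gene; red and blue points are the 87 and 44 genes whose difference between tissues was called above and below 0, and the dashed line marks equal change. Called genes lie along the vertical axis (lung changed), along the horizontal axis (liver changed) or, for a few, in the quadrants of opposite change, while Il1b, S100a9 and Socs3 lie near the dashed line.

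Across the 7194 genes measured in both tissues, the changes in lung and liver had a correlation of 0.28, a description across genes, which are not independent replicates. The median change of all genes tested was -0.01 in lung and -0.05 in liver, and the median difference was 0.05. Of the 8433 differences, 4760 (56.4%) lay above 0. Changes of opposite sign at an unadjusted p under 0.05 in each tissue were found for 62 genes (0.735%) and changes of like sign for 234 (2.77%). Of the genes next to the class limit, Usp43 in lung read 4.01 on its third-highest array and Susd2 3.99. In liver the corresponding values were 4.00 for Fam216a and 3.99 for Epb41l3.

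Neutrophil granule genes rose strongly in lung with little change in liver. Ltf, the iron-binding granule protein lactoferrin, read 9.21, 8.62 and 8.82 in the lungs of tumor-bearing mice and 2.23, 3.14 and 2.23 in control lung. In liver it read 2.15 to 2.19 and 2.06 to 2.08. The lung groups stood far apart, while all 6 liver arrays lay near the lowest value, so lung rose at least 29.5-fold and liver gave no fold (where every array of a group lay at or under 4, folds are lower bounds against 4). The difference was 6.26 ± 0.32 (log2, SE; 95% CI 5.54 to 6.98; limma adjusted p = 1.19e-05). It was taken against values near the lowest of the array, and with values under 4 set to 4 it was 4.88, which is the part the measured levels bear. Mmp8, the neutrophil collagenase, read 6.83, 6.45 and 6.51 against 2.45, 2.81 and 2.45 in lung. Its liver arrays lay between 2.10 and 2.45, and the difference was 3.82 ± 0.19 (adjusted p = 1.19e-05; 2.60 with values under 4 set to 4), with a rise in lung of at least 6.04-fold. Camp, which codes for the antimicrobial peptide cathelicidin, read 8.31, 10.002 and 8.64 against 2.10, 3.13 and 2.25 in lung and 2.04 to 2.40 in liver. The tumor-bearing lungs alone were high, and the difference was 6.27 ± 0.56 (adjusted p = 0.000628; 4.98 with values under 4 set to 4).

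Ngp, the neutrophilic granule protein, was the called granule gene that read above 4 on every liver array. It read 12.10, 12.24 and 11.45 against 4.88, 7.35 and 5.24 in lung, a 68.8-fold rise. In liver it read 5.53, 4.88 and 4.88 against 4.53, 4.53 and 4.09, 1.64-fold higher with groups that did not overlap but no call (adjusted p = 0.466). The difference was 5.39 ± 0.76 (95% CI 3.69 to 7.08; adjusted p = 0.0139; 0.0518 without both hepatocyte-rich lung arrays). Ngp was thus higher with the tumor on every array of both tissues, by far more in lung.

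The receptors and surface proteins of these cells had the same shape. Clec4e, the Mincle receptor for microbial and damage signals, read 6.18, 7.52 and 6.27 in tumor-bearing lung and 2.04 to 2.08 on the other 9 arrays. The difference was 4.60 ± 0.40 (adjusted p = 0.000623), and 2.66 with values under 4 set to 4. Cd177, a neutrophil surface glycoprotein, read 8.49, 6.83 and 7.30 in tumor-bearing lung, 2.04 to 2.19 in control lung and 2.04 in liver. Its difference was 5.45 ± 0.45 (adjusted p = 0.000565), and 3.54 with values under 4 set to 4. Ifitm6, of the interferon-induced transmembrane family, had the largest difference of all called genes. It read 11.28, 10.40 and 10.47 against 2.81, 3.63 and 4.00 in lung and 4.41, 3.16 and 3.97 against 3.07, 3.06 and 3.07 in liver. Both tissues were higher with the tumor without overlap, the lung by at least 105-fold, and the difference was 6.46 ± 0.52 (adjusted p = 0.000565). Csf3r, the receptor for the granulocyte growth factor G-CSF, was measured in both tissues and read 8.63, 9.63 and 8.68 against 6.21, 6.60 and 7.02 in lung. In liver it read 4.59, 5.28 and 4.44 against 4.74, 4.85 and 4.59, where the groups overlapped. The difference was 2.32 ± 0.44 (adjusted p = 0.0353), and its call ended without any 1 of 7 arrays (up to 0.0839). Ccr1, a chemokine receptor of myeloid cells, read 8.15, 8.71 and 7.33 against 5.01, 5.03 and 6.001 in lung and 2.41 to 2.72 in liver. Its difference of 2.51 ± 0.48 (adjusted p = 0.0361) was lost without any 1 of 9 arrays. Leaving out any 1 array did not end the call of Ltf, Mmp8, Camp, Ngp, Clec4e, Cd177 or Ifitm6.

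**Figure D2:**
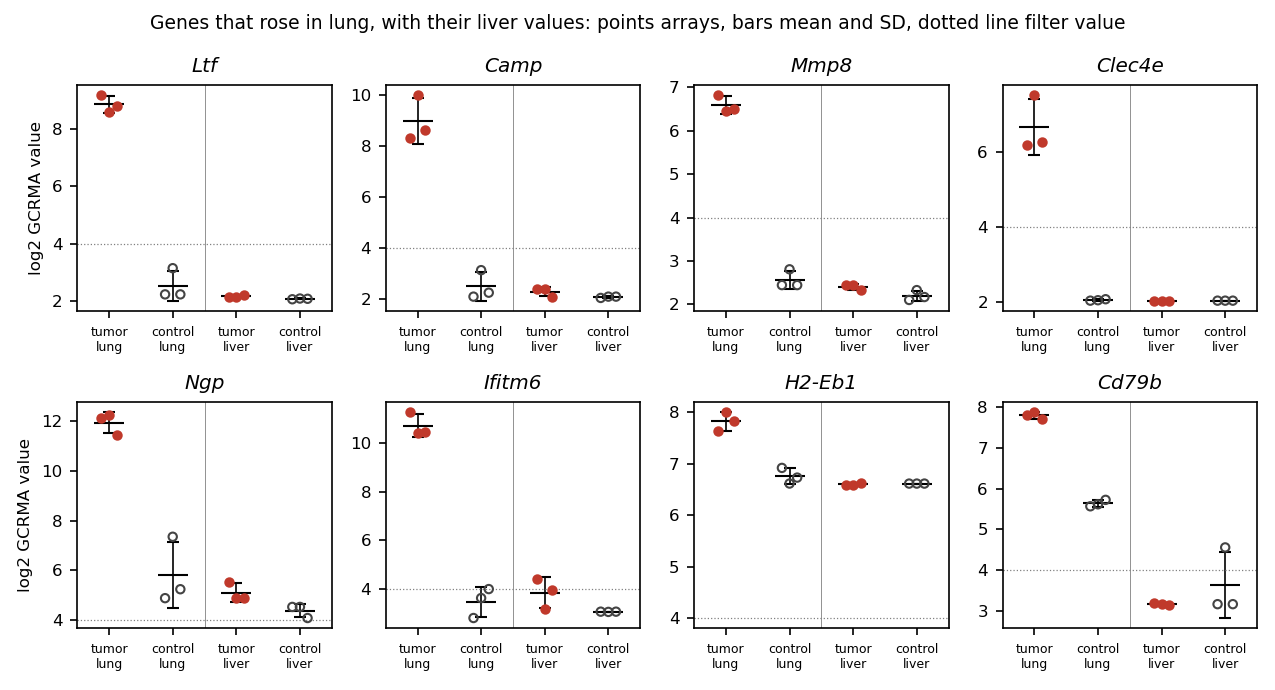
Log2 GCRMA values of 8 genes that rose in lung, by group (x axis: tumor-bearing and control lung, tumor-bearing and control liver); points are arrays, bars the mean and SD of 3, and the dotted line the limit of 4. Ltf, Camp, Mmp8 and Clec4e read above 6 in tumor-bearing lung alone, and in H2-Eb1 and Cd79b the tumor-bearing lungs lie above all control lungs while liver values do not separate the groups.

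Of 14 listed granule genes with a probe set, 11 were tested and 6 were called above 0 (Ltf, Camp, Ngp, Mmp8, Mmp9, Pglyrp1), beside 1.03% of all genes. Of 20 genes of neutrophil surface and activation, 17 were tested and 9 called above 0, and neither list had a call below 0. The median change of the granule list was 2.66 in lung and 0.20 in liver, and that of the surface list 2.84 and 0.15. Most called members passed the limit of 4 only through the tumor-bearing lungs, where they were high, so these counts and medians describe the lists and are no test. The calls above 0 fell to 4 granule genes without control liver replicate 1 or 2 or both hepatocyte-rich lung arrays. They fell to 6 surface genes without control lung replicate 1 or 2, tumor-bearing liver replicate 3, or any 1 control liver array. The mean of the granule list ran from 9.74 to 10.29 in tumor-bearing lung and 6.93 to 7.53 in control lung. In liver it ran from 5.77 to 5.85 and from 5.22 to 5.52, so the liver groups were apart as well, by much less. The members measured in both tissues had median differences of -0.17 (5 granule genes) and 0.03 (6 surface genes), against 0.06 over all genes of that class.

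Some of these were higher with the tumor in both organs. Il1b, which codes for the cytokine interleukin 1 beta, read 10.25, 11.18 and 10.08 against 6.92, 6.85 and 7.92 in lung. In liver it read 8.84, 7.59 and 7.49 against 4.96, 4.85 and 5.01. Tumor-bearing tissue was higher without overlap in both organs, by 3.27 and 3.03, and the difference of 0.24 had an interval of -1.07 to 1.56 (adjusted p = 0.877). S100a9, a subunit of calprotectin, rose by 2.96 in lung and 3.13 in liver, with a difference of -0.17 (95% CI -2.20 to 1.86). Its calls ended without any 1 of 10 arrays in lung (adjusted p up to 0.137) and of 3 in liver (up to 0.0684). S100a8, the partner subunit, read 15.36 to 15.49 against 11.57 to 13.51 in lung and 8.81 to 10.42 against 2.56, 8.02 and 5.95 in liver. Its difference of -1.39 had an interval of -4.88 to 2.09, and neither calprotectin gene can be placed as alike or unlike in the organs from intervals this wide.

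The promoters of the granule and receptor genes are shown for 4 members that hold matches to a myeloid motif, picked after the search. They are the 250 bases before the RefSeq transcript start (GRCm38.p6), 5′ to 3′ on the gene's strand, of Ltf (chr9:111019042-111019291, plus strand), Mmp8 (chr9:7558179-7558428, plus), Ngp (chr9:110419558-110419807, plus) and Clec4e (chr6:123289872-123290121, minus). Capitals mark matches, on either strand, to TTNNGNAA, the letters searched for the C/EBP family of myeloid transcription factors.
Ltf: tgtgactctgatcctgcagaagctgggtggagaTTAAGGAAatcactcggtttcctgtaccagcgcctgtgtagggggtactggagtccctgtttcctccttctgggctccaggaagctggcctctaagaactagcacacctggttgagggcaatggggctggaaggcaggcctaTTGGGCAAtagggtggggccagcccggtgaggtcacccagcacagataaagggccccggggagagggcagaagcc
Mmp8: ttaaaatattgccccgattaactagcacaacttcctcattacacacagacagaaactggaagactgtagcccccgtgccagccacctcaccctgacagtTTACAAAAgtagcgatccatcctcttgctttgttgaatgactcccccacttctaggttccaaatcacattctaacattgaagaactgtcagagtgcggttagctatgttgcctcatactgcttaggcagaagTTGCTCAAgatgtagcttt
Ngp: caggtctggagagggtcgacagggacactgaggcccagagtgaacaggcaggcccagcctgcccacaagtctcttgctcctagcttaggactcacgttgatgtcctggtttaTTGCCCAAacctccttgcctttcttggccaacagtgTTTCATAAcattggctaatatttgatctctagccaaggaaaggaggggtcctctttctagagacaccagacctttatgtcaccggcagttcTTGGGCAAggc
Clec4e: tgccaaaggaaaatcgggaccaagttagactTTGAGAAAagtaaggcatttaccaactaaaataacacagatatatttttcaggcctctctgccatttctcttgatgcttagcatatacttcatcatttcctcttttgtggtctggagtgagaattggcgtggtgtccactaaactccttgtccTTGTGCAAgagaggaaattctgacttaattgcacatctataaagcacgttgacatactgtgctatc

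Counted from the base before the transcript start as -1, the matches began at -217 and -75 in Ltf, at -151 and -19 in Mmp8, at -138, -102 and -11 in Ngp and at -219 and -66 in Clec4e. Cd177 and Ifitm6 each held 1 match and Camp, Csf3r and Pglyrp1, which were called in the same direction, held 0. Of the 40 genes that rose in lung alone, 32 had a promoter sequence, and 20 of these (62.5%) held a match in the 250 bases before the start. The share was 34.2% of the 6863 genes tested that had a sequence and 40.3% of all 27025 genes with a promoter listed. GAGGAAGT, the letters searched for PU.1, was found in 4 of the 32 genes (12.5%), beside 2.8% of the genes tested. These matches are a description of letters and were not tested, and no binding was measured.

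Some B cell genes and 1 class II gene rose in lung alone. Cd79b, a signalling chain of the B cell receptor, read 7.80, 7.87 and 7.71 against 5.57, 5.62 and 5.73 in lung, a 4.46-fold rise. In liver 5 arrays read 3.14 to 3.19 and control replicate 2 read 4.56, and the difference was 2.62 ± 0.43 (adjusted p = 0.0187). That call ended without control lung replicate 2 (adjusted p = 0.0515) or both hepatocyte-rich lung arrays (0.0732). It also ended with each tissue given its own spread (0.0507). Cd37, a tetraspanin of B cells, had a difference of 1.86 ± 0.32 (adjusted p = 0.0224), and of 1.10 with values under 4 set to 4. Its call ended without control liver replicate 1 (0.0590) or 2 (0.0527), or both hepatocyte-rich lung arrays (0.0562). Each tissue's own spread (0.0507) and further quantile normalization of the 12 arrays (0.0572) ended it as well. Of 7 B cell and plasma cell genes tested, Cd79b, Cd37 and Ms4a1 were called above 0, beside 1.03% of all genes, and the list's median change was 1.29 in lung and 0.12 in liver. Only 1 of the 3 was called without control lung replicate 2, control liver replicate 1 or 2, or both hepatocyte-rich lung arrays. Ighm, the heavy chain of immunoglobulin M, read 0.35 lower in tumor-bearing lung with overlapping groups. None of the 5 T and NK cell genes tested of 18 with a probe set was called.

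H2-Eb1, the beta chain of a class II antigen-presenting molecule, read 7.64, 8.003 and 7.83 against 6.92, 6.61 and 6.73 in lung. Its liver values were flat at 6.60 to 6.62, and the difference was 1.08 ± 0.15 (adjusted p = 0.0139). It was the only called member of 8 tested in its list of class II and dendritic cell genes, whose median difference was -0.23. Of the 8 members 7 read higher in tumor-bearing lung (median 0.49) and 6 in tumor-bearing liver (median 0.39).

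Further genes rose in lung without a call in liver. Their differences were the same with values under 4 set to 4, so they do not rest on the lowest values. Ctse, the endosomal protease cathepsin E, read 8.47, 9.03 and 8.68 against 6.97, 6.95 and 6.92 in lung and 8.94 to 9.16 on all liver arrays. Its difference was 1.82 ± 0.18 (adjusted p = 0.00138), but a second probe set read -0.45 and their mean gave 0.68 (adjusted p = 0.433). Alox5ap, which presents arachidonic acid for leukotriene synthesis, read 12.33, 12.22 and 12.03 against 10.85, 11.04 and 11.01 in lung and 7.85 to 8.19 in liver, where the groups overlapped. The difference was 1.31 ± 0.16 (adjusted p = 0.00614). Ripor2, an inhibitor of the GTPase RhoA in leukocytes, read 7.74, 8.15 and 7.95 against 6.41, 6.02 and 6.34, with a difference of 1.38 ± 0.20 (adjusted p = 0.0139). Slc40a1, the iron exporter ferroportin, read 8.45, 8.91 and 8.24 against 6.25, 6.06 and 6.73 in lung and 13.27 to 13.38 against 12.69 to 13.01 in liver. Both tissues were higher with the tumor, lung 4.55-fold and liver 1.39-fold, and the difference of 1.71 ± 0.28 (adjusted p = 0.0187) ended without control lung replicate 1 (0.0515) or control liver replicate 1 (0.0532).

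Fewer genes fell in lung alone, among them 2 listed as airway genes. Elf3, an ETS factor of epithelial differentiation, read 5.20, 5.17 and 5.09 against 6.47, 6.93 and 6.53 in lung, 2.80-fold lower. In liver it lay under 4 on every array, and the difference was -1.44 ± 0.18 (adjusted p = 0.00577). Sec14l2, a lipid-binding protein abundant in liver, read 6.77, 6.65 and 6.98 against 8.29, 8.54 and 8.23 in lung and 12.13 to 12.42 in liver. Tumor-bearing lungs were lower without overlap by 2.93-fold, and the difference was -1.67 ± 0.16 (adjusted p = 0.00113). The hepatocyte-rich lung arrays, at 6.77 and 8.23, were not the highest of their groups. Mak, a kinase of cilia, read 2.49, 2.83 and 2.48 against 4.18, 4.04 and 4.35 in lung and 2.09 to 2.41 in liver, with a difference of -1.86 ± 0.16 (adjusted p = 0.000628). With values under 4 set to 4 that difference shrank to -0.19 (adjusted p = 0.445). Of 14 genes of airway club and ciliated cells tested, Mak and Elf3 were called below 0, beside 0.522% of all genes, and 11 of the 14 differences were below 0 with a median of -0.25.

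The genes that rose in liver alone included growth and signalling genes. Cda, the pyrimidine salvage enzyme cytidine deaminase, had the most negative difference, -4.58 ± 0.43 (95% CI -5.55 to -3.61; adjusted p = 0.000975), which was -3.14 with values under 4 set to 4. It read 7.92, 7.15 and 6.36 in tumor-bearing liver, 2.42 to 2.91 in control liver and 2.05 to 2.12 in lung. Only the livers of tumor-bearing mice were above the limit, by at least 8.82-fold. Inhba, a subunit of activin A, read 6.10, 7.25 and 6.78 against 4.24, 4.71 and 4.75 in liver and 2.15 on every lung array. The difference was -2.15 ± 0.34 (adjusted p = 0.0173), which reached 0.0507 when each tissue was given its own spread, the lung having none. Without both hepatocyte-rich lung arrays its adjusted p was 0.0732. Slc22a7, a hepatic organic anion transporter, read 11.61, 11.38 and 11.65 against 10.12, 10.22 and 10.66 and was 2.32-fold higher, with lung at 2.14 to 2.16. Its difference was -1.22 ± 0.19 (adjusted p = 0.0159; 0.0667 without both hepatocyte-rich lung arrays).

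Myc, the growth-promoting transcription factor, was measured in both organs. It read 5.98, 5.53 and 5.87 against 3.93, 4.10 and 4.19 in liver, a 3.29-fold rise. In lung it read 5.29, 5.29 and 5.18 against 5.36, 5.84 and 5.12, where the groups overlapped. The difference was -1.91 ± 0.25 (adjusted p = 0.00940). Smad7, which inhibits TGF-beta and BMP receptors, read 7.99, 7.57 and 7.82 against 6.02, 6.03 and 6.28 in liver, 3.20-fold higher. Lung values of 9.30, 9.76 and 10.32 against 10.18 to 10.24 overlapped, and the difference was -2.09 ± 0.31 (adjusted p = 0.0139). Dnajc12, a co-chaperone of the aromatic amino acid hydroxylases, read 11.11, 11.26 and 11.42 against 9.42, 9.74 and 9.94 in liver and 7.59 to 8.27 against 8.09 to 8.51 in lung. Liver alone had groups apart, and the difference was -1.89 ± 0.28 (adjusted p = 0.0139).

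Other genes followed this pattern, with differences of -2.06 ± 0.32 for Niban2, -1.79 ± 0.27 for the mitochondrial carrier Slc25a30 and -1.50 ± 0.22 for the receptor Gpr146 (adjusted p = 0.0159, 0.0142 and 0.0139). Slc25a30 reached 0.0517 without both hepatocyte-rich lung arrays. Mgp, the matrix Gla protein that limits calcification, read 5.95, 6.24 and 5.66 against 4.15, 4.45 and 3.56 in liver, 3.73-fold higher, and 14.33 to 14.70 on all lung arrays. Its difference of -1.90 ± 0.31 (adjusted p = 0.0187) ended without control lung replicate 2 (0.0521) or both hepatocyte-rich lung arrays (0.0732). Ncapg2, a condensin subunit, read 4.32, 4.18 and 4.996 against 2.63, 2.20 and 2.22 in liver, at least 1.41-fold higher. Its difference was -1.89 ± 0.29 (adjusted p = 0.0159, or 0.0665 without both hepatocyte-rich lung arrays). With values under 4 set to 4 it was -0.50 (adjusted p = 0.310). Ncapg2 was the only called gene of 21 cell cycle and DNA replication genes tested, of which 17 had differences below 0, with a median of -0.62. In liver 6 of those 21 genes were called higher, beside 2.66% of all genes, a count that ran from 2 (without tumor-bearing liver replicate 3 or any 1 control liver array) to 10.

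**Figure D3:**
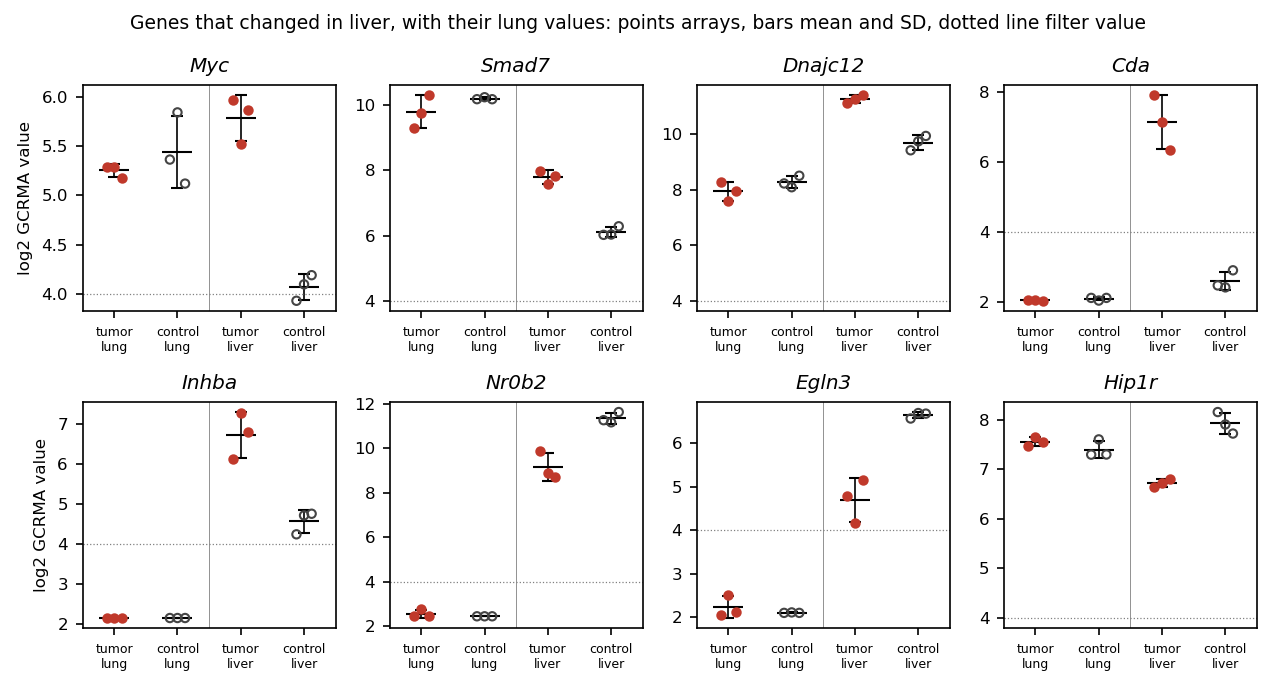
Log2 GCRMA values of 8 genes that changed in liver, by group as named on the x axis; points are arrays, bars the mean and SD of 3, and the dotted line the limit of 4. Myc, Smad7, Dnajc12, Cda and Inhba are higher and Nr0b2, Egln3 and Hip1r lower in tumor-bearing than control liver without overlap, while their lung groups overlap.

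With values as deposited, the largest group above 0 in number fell in liver. Median centring gave 57 calls above 0 in place of 87, and this group was not counted again there. Nr0b2, the bile acid-responsive corepressor SHP, read 9.88, 8.89 and 8.70 against 11.27, 11.18 and 11.64 in liver and 2.44 to 2.75 in lung. Tumor-bearing livers were 4.62-fold lower without overlap. The difference was 2.31 ± 0.37 (adjusted p = 0.0179). Its call ended without control lung replicate 2 (0.0509) or both hepatocyte-rich lung arrays (0.0699). Egln3, an oxygen-sensing prolyl hydroxylase, read 4.79, 4.16 and 5.15 against 6.57, 6.70 and 6.69 in liver, 3.87-fold lower, and 2.05 to 2.51 in lung. The difference was 2.08 ± 0.31 (adjusted p = 0.0139; 1.04 with adjusted p = 0.0569 for the mean of its probe sets).

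Among genes measured in both tissues, Hip1r, which links clathrin-coated pits to actin, read 6.64, 6.72 and 6.81 against 8.15, 7.90 and 7.72 in liver and 7.29 to 7.65 in lung. It was 2.30-fold lower in tumor-bearing liver, with a difference of 1.36 ± 0.18 (adjusted p = 0.00940), although the mean of its 3 probe sets gave 0.67 (adjusted p = 0.0570). Ap3m1, a subunit of the endosomal adaptor AP-3, read 10.51, 10.81 and 10.60 against 11.55, 11.79 and 11.58 in liver, with a difference of 1.17 ± 0.17 (adjusted p = 0.0139). Ppat, the enzyme of the first committed step of purine synthesis, had a difference of 1.33 ± 0.20 (adjusted p = 0.0139, or 0.0608 without both hepatocyte-rich lung arrays). A second probe set of Ppat read -0.08. Tfrc, the transferrin receptor, read 8.79, 9.22 and 9.51 against 11, 11.02 and 10.53 in liver, 3.19-fold lower, and 10.90 to 11.38 in lung. Its difference of 1.48 ± 0.29 (adjusted p = 0.0407) did not hold when 10 of the 12 arrays were left out 1 at a time. The mean of its probe sets gave 0.50 (adjusted p = 0.435). Together with Slc40a1 above and Smad7 and Hmox1 below 0, Tfrc made 4 called genes of 18 tested in the iron list, beside 1.55% of all genes; Slc40a1 and Tfrc were both lost without control lung replicate 1 or control liver replicate 1.

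Promoters are shown for 2 genes that fell in liver and held a match to CACGTG, picked after the search. These letters are the E-box bound by MYC and related factors. The stretches are the 250 bases before the RefSeq start (GRCm38.p6) of Nr0b2 (chr4:133553126-133553375, plus strand) and of 1 of the 2 listed starts of Tbc1d14 (chr5:36582398-36582647, minus), with the match in capitals.
Nr0b2: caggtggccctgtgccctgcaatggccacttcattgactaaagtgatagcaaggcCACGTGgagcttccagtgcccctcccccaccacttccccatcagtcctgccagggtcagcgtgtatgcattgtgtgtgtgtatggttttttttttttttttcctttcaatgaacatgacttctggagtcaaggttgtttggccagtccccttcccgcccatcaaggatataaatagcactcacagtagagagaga
Tbc1d14: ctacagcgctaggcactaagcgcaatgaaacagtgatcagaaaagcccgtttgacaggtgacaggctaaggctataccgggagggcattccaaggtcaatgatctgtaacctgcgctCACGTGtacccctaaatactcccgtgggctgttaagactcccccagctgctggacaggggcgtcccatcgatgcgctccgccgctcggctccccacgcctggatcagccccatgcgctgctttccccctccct

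The match began at -195 in Nr0b2 and at -133 in Tbc1d14, whose other listed start held 0 matches. Of the 45 genes that fell in liver alone, 35 had a promoter sequence and 9 of these (25.7%) held CACGTG. Of the 6863 genes tested with a sequence 687 held it, as did 6.9% of all 27025 genes with a promoter listed. Of the 21 genes with a sequence that rose in liver alone, 2 held it (9.5%). No test was made of these shares, and any part of Myc in the fall of these genes was not tested.

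Genes with opposite movement in the 2 organs were few. Groups that did not overlap in either tissue, in opposite directions, were found for 26 called genes, 14 above and 12 below 0, and for 121 of all genes tested (1.43%), while 375 genes (4.45%) were apart in the same direction. Pag1, a membrane adaptor that recruits the kinase Csk, read 11.14, 11.66 and 11.70 against 10.72, 10.61 and 10.76 in lung. In liver it read 8.14, 8.44 and 8.30 against 9.62, 9.26 and 9.43. It was 1.75-fold higher in tumor-bearing lung and 2.21-fold lower in tumor-bearing liver, with a difference of 1.95 ± 0.22 (95% CI 1.45 to 2.45; adjusted p = 0.00408). The call of the rise in lung (adjusted p = 0.0259) ended without any 1 of 5 arrays, at up to 0.0874. Mycl, a MYC family member, went the other way, reading 4.61, 4.45 and 4.16 against 5.18, 5.86 and 5.18 in lung and 6.06, 6.18 and 5.78 against 5.15, 5.36 and 4.95 in liver. Its difference was -1.85 ± 0.29 (adjusted p = 0.0168). Its calls in the single tissues were weak, ending without any 1 of 7 arrays in lung (adjusted p up to 0.0894) and 5 in liver (up to 0.0986).

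Slc23a2, the vitamin C transporter SVCT2, read 9.16, 8.86 and 8.87 against 7.55, 7.93 and 7.51 in liver, a 2.46-fold rise, and 10.47, 10.48 and 10.10 against 10.75, 10.61 and 10.74 in lung. The lung groups were apart in the other direction without a call, and the difference was -1.65 ± 0.21 (adjusted p = 0.00716). Grpel2, a mitochondrial co-chaperone, rose 1.86-fold in liver and read 9.58, 9.70 and 9.38 against 9.77 to 9.89 in lung, for a difference of -1.15 ± 0.14 (adjusted p = 0.00576). Lrrk2, a kinase strongly expressed in alveolar type II cells, read 9.51 to 9.57 against 10.02 to 10.25 in lung, 1.499-fold lower (adjusted p = 0.0609). In liver it was called higher (adjusted p = 0.0110) with all values under 4, and the difference was -1.37 ± 0.20 (adjusted p = 0.0139; 0.0517 without both hepatocyte-rich lung arrays). With values under 4 set to 4 the difference was -0.58, the change in lung alone.

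In the opposite sense, Dgat1, which makes triglyceride, read 8.92, 8.94 and 8.80 against 8.48, 8.55 and 8.44 in lung and 8.73, 8.72 and 8.96 against 9.39, 9.45 and 9.18 in liver. The difference was 0.93 ± 0.14 (adjusted p = 0.0159). Ttc39b read 8.12 to 8.26 against 7.51 to 7.85 in lung and 8.13 to 8.73 against 9.31 to 9.61 in liver, with a difference of 1.45 ± 0.22 (adjusted p = 0.0159). Tbc1d14, a regulator of autophagy, read 10.72, 10.38 and 10.66 against 10.25 to 10.31 in lung and 9.34 to 9.53 against 9.98 to 10.17 in liver, for 0.95 ± 0.15 (adjusted p = 0.0159; 0.28 with adjusted p = 0.149 for the mean of its probe sets). All 3 fell in liver, and none was called in lung. Without both hepatocyte-rich lung arrays the adjusted p was 0.0713 for Dgat1, 0.0655 for Ttc39b and 0.0665 for Tbc1d14. The call of the fall of Dgat1 in liver ended without control liver replicate 1 (0.0519) or 2 (0.0551).

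**Figure D4:**
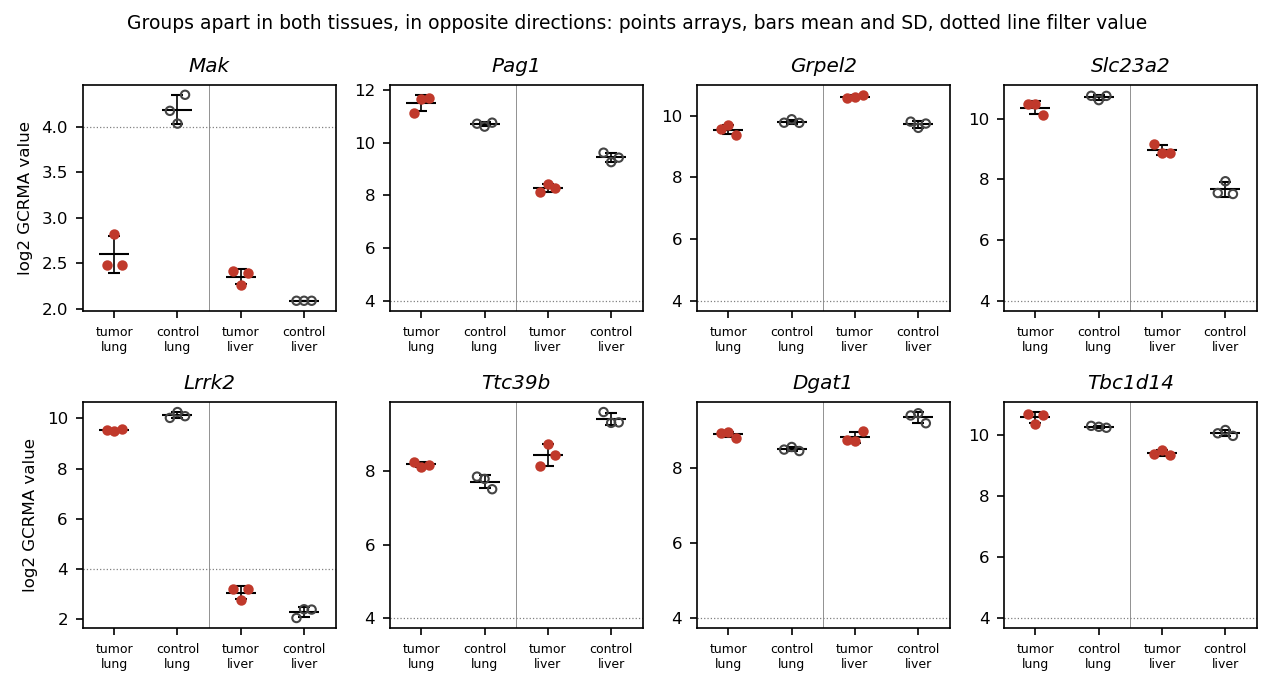
Log2 GCRMA values of 8 called genes whose tumor-bearing and control arrays did not overlap in either tissue and lay apart in opposite directions, by group as named on the x axis; points are arrays, bars the mean and SD of 3, and the dotted line the limit of 4. In Pag1, Ttc39b, Dgat1 and Tbc1d14 lung is higher and liver lower with the tumor, and in Grpel2, Slc23a2, Lrrk2 and Mak the reverse holds, with liver values of Mak and Lrrk2 under the limit.

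Oxidative stress genes gave 2 calls below 0 of 21 tested NRF2 targets, Osgin1 and Hmox1, beside 0.522% of all genes, and the list median was -0.20. Osgin1, a growth inhibitor induced by oxidative stress, read 7.10, 7.17 and 7.31 against 8.39, 7.91 and 7.86 in lung and 12.22, 11.06 and 11.07 against 10.20, 9.70 and 9.88 in liver. Its difference was -2.39 ± 0.41 (adjusted p = 0.0234). The call ended without control lung replicate 1 (0.0606) or 2 (0.0539), control liver replicate 2 (0.0580) or both hepatocyte-rich lung arrays (0.0786). Hmox1, the haem-degrading enzyme, read 7.63, 7.13 and 6.83 against 7.98 to 8.13 in lung and 8.84, 8.41 and 8.90 against 7.996 to 8.34 in liver. The groups were apart in opposite directions, but neither tissue was called, and the difference of -1.41 ± 0.28 (adjusted p = 0.0407) was lost without any 1 of 10 arrays. Both calls were absent without control lung replicate 1 or 2 or control liver replicate 2.

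The remaining lists showed where the organs changed alike or without a called difference. Heat shock proteins and DNAJ co-chaperones had medians of -0.79 in lung and -0.66 in liver, with 7 and 5 of 23 genes called lower, beside 0.866% and 5.09% of all genes, and none called in the difference, whose median was 0.06. The lung count fell to 4 without control lung replicate 3 and to 2 without both hepatocyte-rich lung arrays, and the liver count fell to 2 without control liver replicate 1 or 2. Dnajb2, a co-chaperone of this group, read 9.13, 9.30 and 9.20 against 10.03, 10.05 and 9.91 in lung and 9.12, 9.35 and 9.24 against 10.25, 10.10 and 9.90 in liver. The difference was 0.06 (95% CI -0.28 to 0.40; adjusted p = 0.881). Cirbp, a cold-inducible RNA-binding protein, rose 2.93-fold in lung and 2.72-fold in liver, with a difference of 0.11 (95% CI -0.58 to 0.80). Socs3, the feedback inhibitor of STAT3 signalling, read 11.32, 11.78 and 11.44 against 10.10, 9.47 and 10.26 in lung and 11.59, 11.19 and 11.47 against 9.62, 9.71 and 9.75 in liver. Both organs rose, by 1.57 and 1.72, and the difference was -0.15 (95% CI -0.79 to 0.49; adjusted p = 0.832).

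Of 17 IL-6 and STAT3 response genes only Myc was called in the difference, and 12 differences lay below 0 with a median of -0.39. The 22 interferon-gamma inducible genes had medians of 1.08 in lung and 0.69 in liver and no call in either tissue or in the difference. Of 17 type I interferon-stimulated genes Dhx58 alone was called below 0 (-1.37, adjusted p = 0.0494), and it was lost without any 1 of 11 arrays. Cholesterol and fatty acid synthesis had 21 of 27 differences below 0 with a median of -0.40. Ribosome biogenesis had 20 of 26 above 0 with a median of 0.20, beside 56.4% of all genes tested. Each of these lists had 1 call. Those calls were Lss, lost without any 1 of 11 arrays, and Polr1b, lost without any 1 of 5. Hypoxia genes had Egln3 above 0 and the glycolytic enzyme Hk2 below it, the latter lost whichever array was left out. None of 16 hepatocyte genes was called, but their median difference was -0.55. In lung the mean of that list was 9.21, 4.39 and 4.47 with the tumor against 5.34, 4.04 and 10.32 without it. The list moved with the same 2 arrays that stood apart in Alb, and its part in the differences of other genes was measured only by leaving those arrays out.

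**Figure D5:**
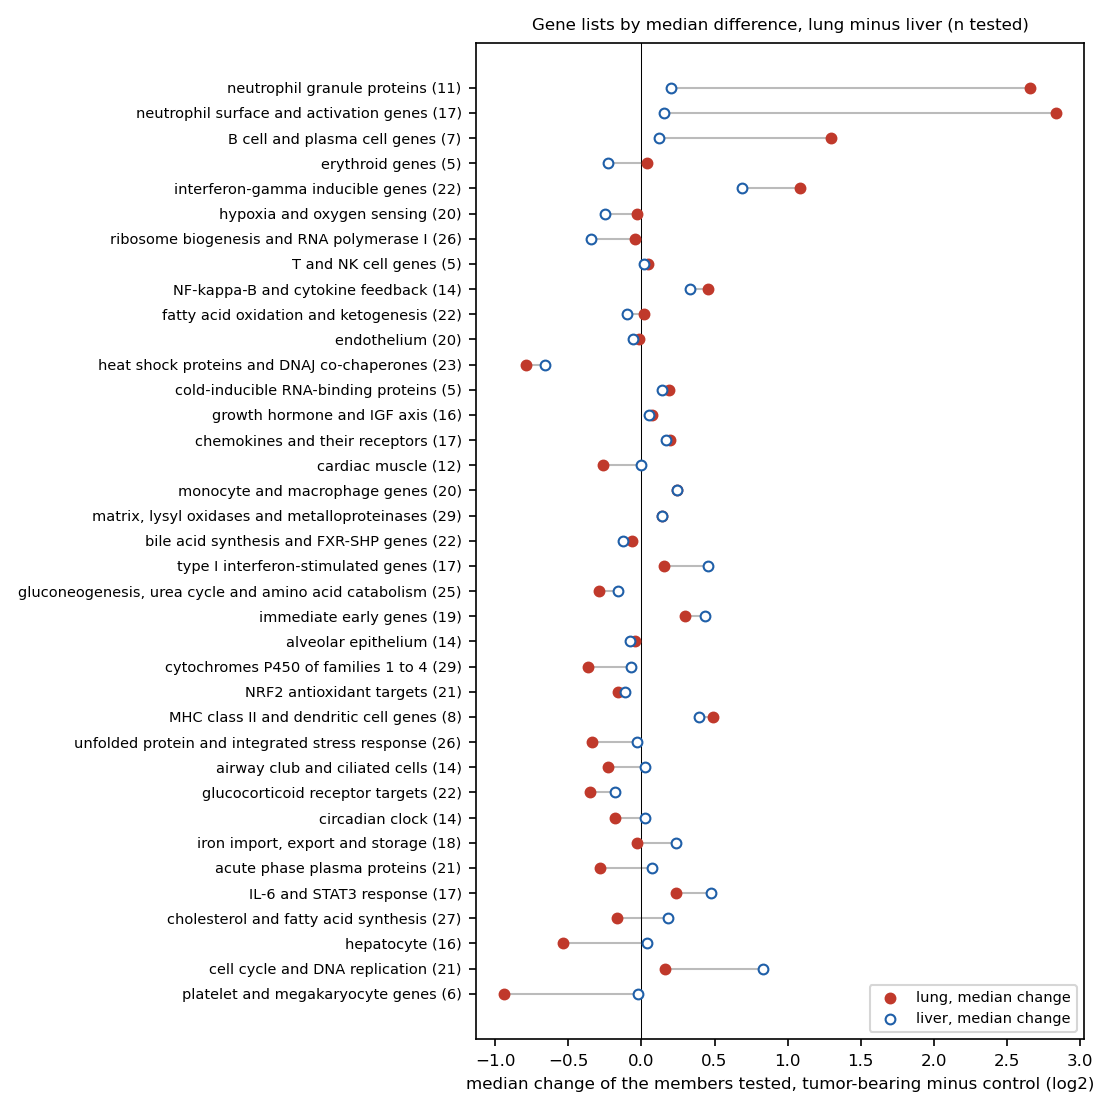
Median change (tumor-bearing minus control, log2) of the tested members of 37 gene lists in lung (filled points) and liver (open points), ordered by the median difference between tissues, with the number tested in brackets. The neutrophil lists stand at 2.66 and 2.84 in lung against 0.20 and 0.15 in liver, heat shock genes are negative in both tissues, and most other lists lie within 1 log2 unit of 0.

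Further lists had 1 call or none. The calls were Trib3 of 26 unfolded protein and stress response genes (-2.12, or -0.82 with values under 4 set to 4; 19 of 26 below 0), Slc25a20 of 22 fatty acid oxidation genes (0.77) and Socs2 of 16 growth hormone axis genes (-1.36). Trib3 and Slc25a20 were each lost without any 1 of 10 arrays and Socs2 without any 1 of 9. Myc was also the only call of 19 immediate early genes, and Nr0b2 of 22 bile acid genes. Car1, an erythroid carbonic anhydrase and the only call of 5 erythroid genes, read 4.94, 5.03 and 4.15 against 6.85, 6.39 and 6.29 in liver, 3.49-fold lower, and 2.04 to 2.17 in lung. Its difference was 1.84 ± 0.31 (adjusted p = 0.0200). The call ended without control lung replicate 2 (0.0585) or both hepatocyte-rich lung arrays (0.0794), and with each tissue given its own spread (0.0507). The 29 matrix genes held the calls of Mmp8, Mmp9 and Mgp and the 17 chemokine genes that of Ccr1.

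By limma no gene was called in the difference among 14 NF-kappa-B feedback, 14 circadian clock, 22 glucocorticoid target, 21 acute phase, 25 gluconeogenesis and urea cycle, 29 cytochrome P450 and 5 cold-inducible genes. At an unadjusted p under 0.05 these held 5, 7, 1, 2, 2, 6 and 0 genes, beside 17.2% of all genes. Among cell type lists the same held for 20 monocyte and macrophage, 14 alveolar, 20 endothelial, 12 cardiac and 6 platelet genes, with 1, 1, 1, 1 and 0 at an unadjusted p under 0.05. The monocyte and macrophage list had a median change of 0.24 in each tissue. The platelet list had the lowest median difference of all lists, -0.97, with 5 of 6 members below 0. At that unadjusted threshold the heat shock list held 6 genes, and the interferon-gamma, T and NK cell and hepatocyte lists 0.

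Some genes tied to the niche or to liver inflammation had differences that did not pass. Saa3, a serum amyloid A protein, read 9.25, 11.63 and 9.79 against 7.19 to 8.90 in lung and 9.25 to 9.39 against 8.91 to 9.92 in liver, with a difference of 2.38 (95% CI 0.52 to 4.24; adjusted p = 0.190). Il1rn, the interleukin 1 receptor antagonist, rose 3.96-fold in liver and read 4.90 to 6.36 against 4.89 to 5.55 in lung, with a difference of -1.35 (95% CI -2.52 to -0.18; adjusted p = 0.227). Cish, a feedback inhibitor of cytokine receptors, rose 6.396-fold in liver, with a difference of -2.20 (95% CI -3.48 to -0.93; adjusted p = 0.0933). Fn1, which codes for fibronectin, rose 1.89-fold in lung and read 14.31 to 14.39 against 14.17 to 14.26 in liver, with a difference of 0.77 (95% CI 0.22 to 1.31; adjusted p = 0.153; 0.0105 without tumor-bearing lung replicate 1). Acot1, an acyl-CoA thioesterase, had a difference of 2.35 (adjusted p = 0.0768). In these genes a call in 1 tissue alone does not show that the tissues differed.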

How the data were processed

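The 12 arrays, 3 per organ and treatment, each held 22626 probe sets. The deposited values are log2 GCRMA values made by the authors, per the submitters' processing notes, which also name limma, with versions not given in the sources used here. GCRMA corrects background by probe sequence, which compresses low values at a shared lowest value. The number of arrays limits the precision.

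Probe sets with 1 gene symbol (20380; 691 listed with several genes and 1555 not listed were left out) were reduced to the set with the highest mean per gene. Genes above 4 on at least 3 of 12 arrays were tested with limma 3.58.1 (lmFit and eBayes) in R 4.3.3, with 4 group means, the difference contrast and Benjamini-Hochberg adjustment at 0.05. Adjusted p-values are limma's and measure the spread between these arrays. Folds come from group means. The members, the 37 gene lists (765 of 845 members with a probe set) and the tests were chosen with earlier results of these data known. Genes were named by smallest p per class and direction (12 or 6), up to 8 with opposite changes, 2 per list, and a fixed set; Ms4a1, Pglyrp1 and Ighm were named after their values were seen. Promoters are RefSeq's (GRCm38.p6), matched by symbol for 6863 of the genes tested. Alternatives covered the filter, probe sets, normalization, eBayes options, array weights, the replicate block and arrays left out. Giving each tissue its own spread was added after seeing the data.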

Additional observations from a re-analysis of the deposited data

Results flagged for a closer look

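The response to the tumor differed between lung and liver for 131 genes by the test of the difference itself, with arrays treated as independent. With each number taken as 1 mouse the count was 14 with a separate level fitted for each mouse, and 149 with a random effect. Among the named genes, 12 had tumor-bearing and control arrays apart in both tissues in opposite directions. Their differences were 1.95 for Pag1, 1.45 for Ttc39b, 0.95 for Tbc1d14 and 0.93 for Dgat1, where lung was higher with the tumor and liver lower. They were -2.39 for Osgin1, -1.86 for Mak, -1.85 for Mycl, -1.65 for Slc23a2, -1.41 for Hmox1, -1.37 for Lrrk2, -1.15 for Grpel2 and -1.04 for Gal3st1, where the reverse held. All liver values of Mak, Lrrk2 and Gal3st1 were under 4, so their change in liver is not a measured level, and with values under 4 set to 4 their differences were -0.19, -0.58 and -0.70. The call of Gal3st1 was lost without any 1 of 10 arrays. Outside the gene tests, 14 of 1092 probe sets without a single gene symbol were called in the difference, 11 above and 3 below 0.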

How the results depend on the processing

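Of 1725 values of the 61 called genes named, 1409 stayed past the threshold, 316 did not and none changed sign. The 131 calls (87 above and 44 below 0) became 74 (47 and 27) with only genes measured in both tissues tested, 18 (11 and 7) at an adjusted p under 0.01 and 328 (216 and 112) under 0.10. Median centring gave 57 above 0. Without both hepatocyte-rich lung arrays 64 were called (33 above), 41 of them among the 131, with 146 calls in lung and 428 in liver. Leaving out each array in turn gave 57 to 145 calls (37 to 102 above, 20 to 43 below), 102 to 220 in lung and 284 to 683 in liver; lung fell most without control replicate 1 (138) and 3 (102), liver without tumor-bearing replicate 1 (339) and control replicates 1 (301) and 2 (284). With only the arrays of 1 tissue in the fit, 58 genes were called in lung and 144 in liver. Giving each tissue its own spread gave 122 calls, with 17 rather than 32 lung-only and 7 rather than 14 liver-only genes.

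The replicate block that takes lung and liver of a number as 1 mouse left 14 calls (10 above, 4 below), 13 of them among the 131, and a block of the numbers across all groups left 70 (46 and 24). As a random effect the block gave 149. Correlations of same-numbered residuals ran from 0.037 to 0.132, and those of unlike numbers from -0.125 to 0.023. Each lung array correlated best with the liver array of its own number. The labels do not say that a number marks a mouse, so pairing was left undecided. The 131 calls hold for arrays treated as independent, and all of them were among the 149 of the random effect. The 14 hold for numbers taken as mice with a separate level fitted for each mouse. With 3 arrays per group, low values at the floor and 26.7% to 28.5% of values there, a difference that missed the threshold is not shown to be absent.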
